A study of Mus musculus with 18 samples.

Results

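All papain-exposed nasal mucosa was compared with control nasal mucosa: 12 of the 18 mouse RNA-seq libraries of the series, taken by their group labels, against the 6 libraries of the group CON. The 12 are the 6 of the group CRS and the 6 of the group C10, and both groups weighed equally in the contrast, so that a gene had to differ from CON on average over mucosa with and without the compound. Mice of the CRS group, a model of chronic rhinosinusitis, received 20 µg of papain, a cysteine protease from papaya, in 20 µL of phosphate-buffered saline through the nose on days 0 to 2 and 7 to 11. Animals of the C10 group are taken to have had the same papain course, since the protocol describes C10 as given to CRS mice, at 10 mg/mL, 10 µL per side, once a day for 10 days from the papain start. The series presents C10 as an inhibitor of APE1, an enzyme of DNA repair and of redox control of transcription factors. What CON mice received is not said in the labels, which also give no strain, age, sex or hour of collection, and do not say that each library is a separate animal. P-values therefore measure the spread between these libraries, which may be in part technical.

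Papain breaks epithelial junctions and cleaves protease-activated receptors, and injured epithelium then releases alarm cytokines such as IL-33 that drive type 2 inflammation, with chitinase-like proteins and mucus as its usual products. Nasal mucosa of the mouse holds respiratory epithelium, glands, a vascular connective tissue and, further back, olfactory epithelium, whose neurons are replaced from basal progenitors throughout life. Bulk RNA is a sum over all of these, so that fewer cells of a type and less RNA per cell cannot be told apart.

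Totals ran from 15883573 to 18433866 counts per library. Markers of the labelled tissue were present in all 18: the summed level of 18 mature olfactory neuron genes lay between 4151 and 12410 CPM (counts scaled to library size, with TMM factors), and that of 26 ciliated cell genes between 2158 and 3466 CPM. Libraries did not separate by papain on the leading principal component, which held 32.7% of the variance: CON libraries spanned -26.7 to 49.5 and C10 libraries -32.0 to 31.8, and beyond both ranges lay CRS 2 (-80.9), CRS 5 (-59.1) and CRS 1 (64.6). CRS 1 had the highest summed levels among CRS libraries for fibroblast and endothelial genes and the lowest for mature olfactory neuron genes. Counts of calls are given with and without these 3 libraries, and list medians without CRS 2 and CRS 5 where these moved them by over 1.5 times. CON 3 had the highest mean levels within CON for inflammatory, bone and neutrophil genes, and medians that it moved as far are given without it.

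Few genes passed the test in the pooled comparison, and all that did were lower after papain. Of 18291 genes tested with edgeR's quasi-likelihood test, 5 fell at a Benjamini-Hochberg adjusted p under 0.05 (0.0273%), and 0 were called higher. They were Spon2, Nkain1, Hspa1b, Itgbl1 and Arsa. At an unadjusted p under 0.05 there were 1198 genes higher (6.55%) and 1306 lower (7.14%). With DESeq2, 56 genes passed in the higher and 95 in the lower direction. With limma-voom and quality weights these numbers were 141 and 433. In the component comparisons, which share the CON libraries, 1 gene was called for CRS against CON (0.00547%) and 29 for C10 against CON (0.159%), and 15 differed between C10 and CRS (0.082%).

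Each of the 5 calls had the same adjusted p, 0.0479, close to the threshold, and they depended on which libraries entered. Leaving out any 1 of the 6 CON libraries gave 0 calls, as did leaving out CRS 3, CRS 5, CRS 6, C10 1, C10 3, C10 4 or C10 5. Without CRS 2 or without CRS 4 there was 1 call, and without C10 2 or C10 6 there were 5. Other size factors (RLE), no filter on low counts and papain as 1 group of 12 each gave 0 calls as well. Without CRS 1 the count went the other way, to 107 genes higher (0.58%) and 439 lower (2.38%) of 18452 tested, and the 5 genes were among these 546 (2.96%). Without both CRS 2 and CRS 5 there were 0 calls, and without CRS 1, CRS 2 and CRS 5 there were 34 higher (0.179%) and 153 lower (0.805%) of 19001 tested (0.984% in all). The counts and adjusted p-values without CRS 1 are given further on only as a description beside those over all 18 libraries. That library was singled out after its effect on the count had been seen, and for several named genes it lay inside the CON range. A lower adjusted p without it therefore adds no support for a gene, and without CRS 2 and CRS 5 there were 0 calls.

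**Figure D1:**
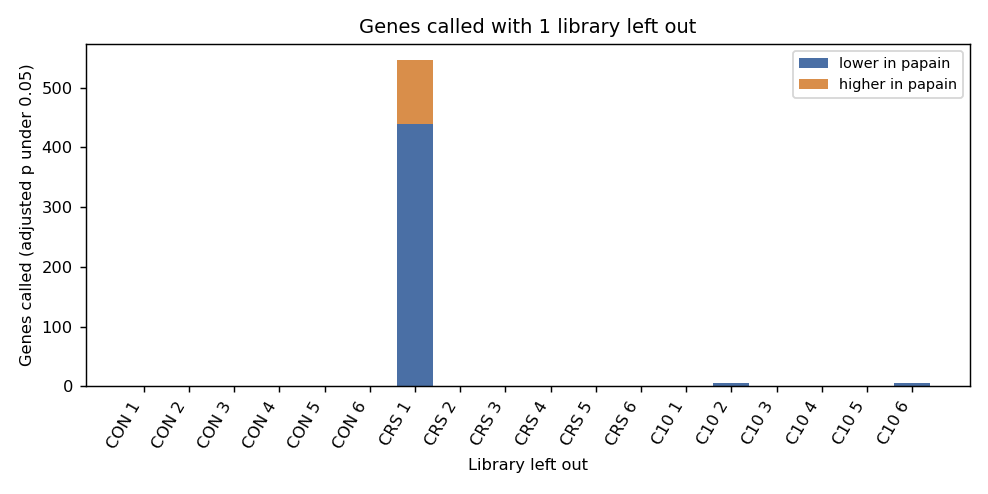
Number of genes called in the pooled comparison (vertical axis, genes at edgeR adjusted p under 0.05) when the library named on the horizontal axis is left out, with genes lower in papain in blue and higher in orange. Without CRS 1 the count is 546, and without any other library it is at most 5.

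Itgbl1, which encodes an extracellular protein with integrin beta-like repeats, was the only called gene whose 12 papain libraries all lay below all 6 CON libraries. It is encoded at chr14:123659971-123975618 (mm10, plus strand; ENSMUSG00000032925). Its level ran from 32.3 to 43.4 CPM in CON (median 33.5), from 19.7 to 31.9 in CRS (median 24.6) and from 18.9 to 26.2 in C10 (median 21.0). The highest papain library, CRS 1, was close to the lowest CON library, and C10 2 stood apart from the other C10 libraries. The gene fell 1.52-fold (log2 fold change -0.60 ± 0.10 SE, n = 12 against 6; edgeR adjusted p = 0.0479), by -0.48 in CRS and -0.72 in C10 against CON.

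Spon2 encodes spondin 2, a secreted matrix protein that binds integrins and takes part in recruiting inflammatory cells. The gene lies at chr5:33198184-33218455 (minus strand; ENSMUSG00000037379). CON libraries held 6.78 to 10.2 CPM (median 8.71), CRS libraries 3.48 to 7.07 (median 5.87) and C10 libraries 3.62 to 4.77 (median 4.36). CRS 5 was the only papain library inside the CON range, and the C10 libraries lay close together. Spon2 fell 1.75-fold (log2 fold change -0.81 ± 0.13 SE; edgeR adjusted p = 0.0479), with -0.60 in CRS and -1.01 in C10.

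Nkain1, which encodes a membrane protein that interacts with the sodium and potassium pump, showed the largest fall of the 5, 2.46-fold (log2 fold change -1.30 ± 0.21 SE; edgeR adjusted p = 0.0479). It was a gene of few counts, 365 over the CON libraries, 152 over CRS and 128 over C10, at chr4:130531602-130574173 (minus strand; ENSMUSG00000078532). CON values ran from 2.04 to 5.67 CPM (median 3.14), CRS values from 1.05 to 2.38 (median 1.43) and C10 values from 0.997 to 1.57 (median 1.22). CON was the most spread group, and CRS 1 again was the only papain library within its range.

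Arsa encodes arylsulfatase A, a lysosomal enzyme that degrades sulfatide, at chr15:89472476-89477425 (minus strand; ENSMUSG00000022620). Its CPM ran from 24.5 to 31.9 in CON (median 28.3), from 21.7 to 28.6 in CRS (median 22.9) and from 17.6 to 21.1 in C10 (median 19.2). All C10 libraries lay below all CON libraries, while CRS 1 and CRS 4 lay within the CON range. It fell 1.32-fold (log2 fold change -0.40 ± 0.07 SE; edgeR adjusted p = 0.0479), with -0.25 in CRS and -0.55 in C10. The difference between C10 and CRS was not called for any of the 5 genes (edgeR adjusted p from 0.132 for Arsa to 0.718 for Nkain1).

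**Figure D2:**
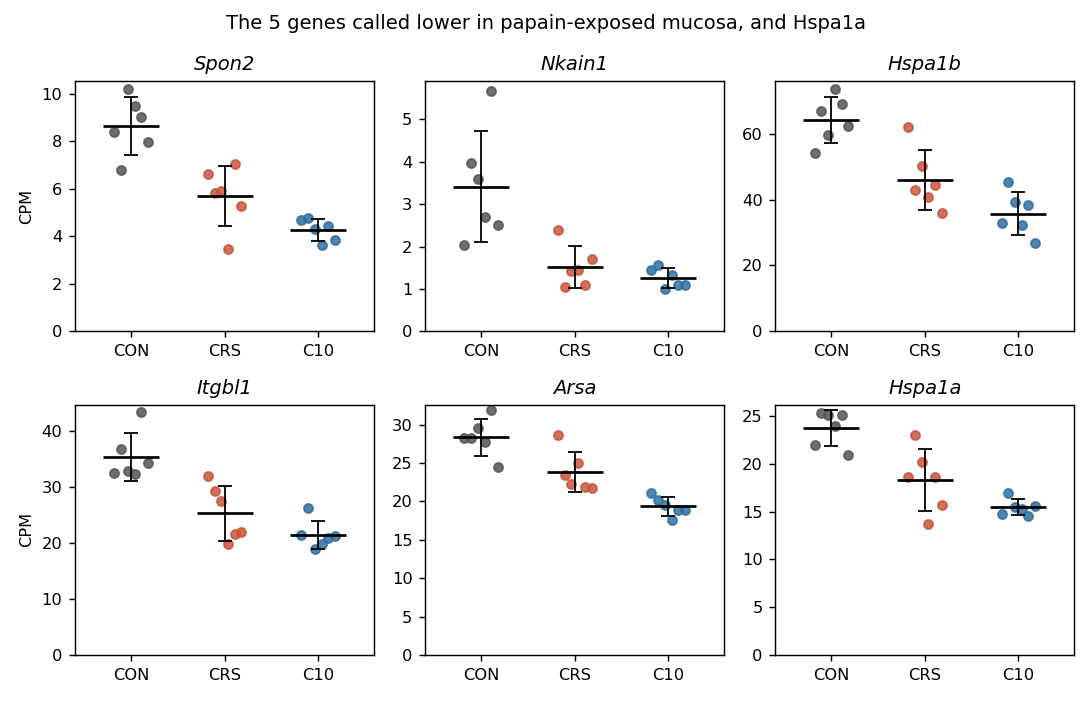
CPM per library (vertical axes, linear from 0) of the 5 called genes and Hspa1a in CON, CRS and C10, 6 libraries each; points are libraries, horizontal lines means and bars SD. For Itgbl1 the 12 papain points lie below the 6 CON points, and for the other 5 genes 1 or 2 papain points reach the CON range.

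Hspa1b encodes inducible HSP70, the chaperone that cells make on heat and proteotoxic stress. Hspa1a, its neighbour on chromosome 17, encodes nearly the same protein from a near-identical sequence, so reads can be split between the copies and the count of each is uncertain. Their promoters are shown because both copies lay lower in papain libraries. Each line is the 250 bases before the RefSeq start site (build GRCm38.p6, 5′ to 3′ on the gene's own minus strand, chr17:34959239-34959488 for Hspa1b and chr17:34972157-34972406 for Hspa1a), and capitals mark matches to GAANNTTC, the core of a heat shock element, searched on both strands.
Hspa1b: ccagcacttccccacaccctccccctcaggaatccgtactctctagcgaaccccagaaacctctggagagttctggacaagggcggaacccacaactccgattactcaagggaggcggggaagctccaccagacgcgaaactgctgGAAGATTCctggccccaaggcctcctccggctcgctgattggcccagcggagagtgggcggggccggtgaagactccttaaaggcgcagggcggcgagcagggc
Hspa1a: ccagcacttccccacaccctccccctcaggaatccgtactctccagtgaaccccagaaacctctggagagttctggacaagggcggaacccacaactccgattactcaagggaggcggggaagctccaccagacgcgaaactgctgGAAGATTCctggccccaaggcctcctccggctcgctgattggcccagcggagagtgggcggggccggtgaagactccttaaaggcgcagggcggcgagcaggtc
The stretches were identical at 247 of 250 bases (98.8%), the differences from Hspa1a to Hspa1b being C44T, T47C and T249G, counted from 1 at the 5′ end as printed. The motif occurred in the 300-base promoter windows of 9.04% of 27025 genes. Its share over the heat shock list was void, since 14 of 18 members, under 80%, had an entry.

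Hspa1b (chr17:34956436-34959238, minus strand; ENSMUSG00000090877) had 54.3 to 73.7 CPM in CON (median 64.7), 35.9 to 62.0 in CRS (median 43.7) and 26.7 to 45.2 in C10 (median 35.6). CRS 1 alone among papain libraries reached the CON range. Hspa1b fell 1.58-fold (log2 fold change -0.66 ± 0.11 SE; edgeR adjusted p = 0.0479). Hspa1a, at 20.9 to 25.4 CPM in CON, 13.7 to 23.1 in CRS and 14.6 to 17.0 in C10, had a log2 fold change of -0.50 ± 0.09 SE that missed the threshold (edgeR adjusted p = 0.064).

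Because the copies share reads, their CPM values were also summed, a choice made after their values were seen. The sum averaged 88.0 ± 8.0 CPM in CON, 64.4 ± 10.6 in CRS and 51.2 ± 6.99 in C10 (SD, n = 6 each). The papain libraries ran from 42.2 to 80.7 and the CON libraries from 76.3 to 97.7, and 11 of 12 papain libraries lay below all CON libraries. The mean log2 difference was -0.63, given without a test, since the pair was singled out for its values. No other member of the heat shock list of 18 was called. Hsph1, an HSP110 chaperone, had -0.27 ± 0.08 (adjusted p = 0.211) and Dnajb1, an HSP40 co-chaperone of the same response, -0.18 ± 0.06 (0.253). Hspa8, the constitutive HSP70, had -0.04 ± 0.06 and Hsp90aa1 -0.04 ± 0.06, and the list's median was -0.04 beside 0.01 over all genes tested.

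Genes of the circadian clock held the highest-ranking genes with a higher level in papain libraries. The labels give no hour of collection, and the part of that hour in the values of clock genes was not tested. In the clock, the pair of ARNTL (BMAL1) with CLOCK or NPAS2 activates genes through E-boxes, PER and CRY proteins and the nuclear receptors NR1D1 and NR1D2 feed back on it, and DBP, TEF and HLF act through D-boxes that NFIL3 represses. None of the 19 members was called over all 18 libraries, against 0.0273% of all genes. At an unadjusted p under 0.05, 10 were higher and 4 lower, against 6.55% and 7.14% of all genes, and 15 of 19 had a log2 fold change above 0, against 52.4% of all genes. Without CRS 1, 6 were called higher and 2 lower, against 0.58% and 2.38% of all genes in that fit. With CRS 1, CRS 2 and CRS 5 left out, 3 were called higher and 2 lower, against 0.179% and 0.805% of all genes. With only CRS 2 and CRS 5 left out, 0 were called.

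Dbp had 25.2 to 41.1 CPM in CON (median 28.9), 26.2 to 61.1 in CRS (median 42.7) and 53.4 to 86.7 in C10 (median 81.7). All C10 libraries lay above CON, whereas CRS 1, CRS 2 and CRS 6 lay within its range. Its log2 fold change was 0.89 ± 0.16 SE (adjusted p = 0.0702 in edgeR, and 0.00413 without CRS 1). Dbp overlaps the protein-coding gene Sphk2, and without strand their reads cannot be separated. Bhlhe41, which encodes the E-box repressor DEC2, had 17.2 to 25.3 CPM in CON (median 22.1), 30.6 to 48.3 in CRS (median 37.6) and 20.0 to 33.0 in C10 (median 31.9). Here it was the CRS libraries that lay highest, and C10 1 was the only papain library within the CON range (log2 fold change 0.63 ± 0.12 SE; adjusted p = 0.0828, and 0.00775 without CRS 1).

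The positive arm stood on the opposite side. Arntl had a log2 fold change of -0.49 ± 0.12 (adjusted p = 0.162 in edgeR, and 0.0245 without CRS 1), Npas2 of -0.42 ± 0.13 (0.220) and Clock of -0.18 ± 0.08 (0.336). Nfil3 had -0.63 ± 0.16 (0.180). Members of the feedback and output arms were above 0: Nr1d2 at 0.40 ± 0.09 (0.151), Nr1d1 at 0.47 ± 0.13 (0.211), Tef at 0.35 ± 0.10 (0.202), Per2 at 0.34 ± 0.10 (0.220), Per3 at 0.36 ± 0.12 (0.232) and Ciart, a repressor of the ARNTL complex, at 0.90 ± 0.27 (0.220). Per1 and Cry2 were near 0, at 0.08 ± 0.16 and 0.04 ± 0.09. Several members beyond the smallest p of the list are named here because the arms were compared after their values were seen. For Arntl, Nfil3, Dbp and Per3 the C10 value was the larger one (-0.76, -0.92, 1.29 and 0.63, beside -0.22, -0.34, 0.49 and 0.09 in CRS), and for Bhlhe41 the CRS value (0.83, beside 0.43).

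**Figure D3:**
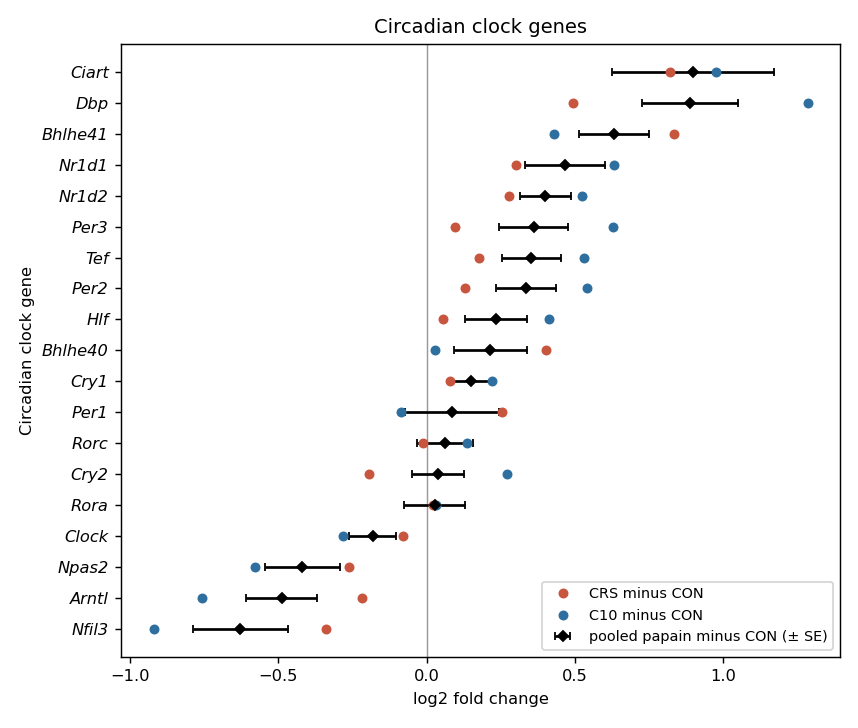
Log2 fold change against CON (horizontal axis) of the 19 circadian clock genes (vertical axis), with black diamonds for the pooled contrast with SE, red points for CRS and blue points for C10. Nfil3, Arntl, Npas2 and Clock lie below 0 and the other 15 above, none of them past the threshold over all libraries.

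Promoter stretches of a pair of clock genes show what the E-box and D-box look like in this set. They are 120 bases each from RefSeq (GRCm38.p6, minus strand, 5′ to 3′), chr6:145865511-145865630 for Bhlhe41 with the E-box CACGTG in capitals, and chr4:151044784-151044903 for Per3 with both of its copies of the D-box TTATGTAA in capitals.
Bhlhe41: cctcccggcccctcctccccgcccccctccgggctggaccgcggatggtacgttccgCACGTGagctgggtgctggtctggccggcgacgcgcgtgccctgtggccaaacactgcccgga
Per3: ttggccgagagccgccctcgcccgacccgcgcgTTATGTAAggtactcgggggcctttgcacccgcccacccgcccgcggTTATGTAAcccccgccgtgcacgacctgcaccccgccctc
Of the 16 clock genes with a promoter entry, 5 (31.2%) held CACGTG within the 300-base window, namely Per1, Cry1, Tef, Bhlhe41 and Ciart, against 8.09% of 27025 genes. TTATGTAA or its reverse complement occurred in 1 of the 16 (6.25%), against 1.11%. Both are descriptions of letters in the window, and among the 5 genes with an E-box Per1 had a value near 0.

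Genes of the connective tissue lists stood lower as a group, with 0 of them called over all 18 libraries, against 0.0273% of all genes. The called genes Spon2 and Itgbl1, which encode a matrix protein and an extracellular protein, were not in these lists. All 18 collagen genes had a log2 fold change below 0, with a median of -0.71 (-0.58 in CRS and -0.76 in C10) beside 0.01 over all genes. At an unadjusted p under 0.05, 14 of the 18 were lower, against 7.14% of all genes, and 11 were called lower without CRS 1, against 2.38% of all genes in that fit. With CRS 1, CRS 2 and CRS 5 left out, 5 were called lower, against 0.805% of all genes. With only CRS 2 and CRS 5 left out, 0 were called. All 30 genes of matrix remodelling were likewise below 0 (median -0.64), 23 of them at an unadjusted p under 0.05, and 15 were called lower without CRS 1. Of these 30, 8 were called lower with CRS 1, CRS 2 and CRS 5 left out, and 0 with only CRS 2 and CRS 5 left out.

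Eln, which encodes elastin, came closest to the threshold. It had 160 to 292 CPM in CON (median 184), 75.4 to 237 in CRS (median 92.1) and 38.6 to 78.6 in C10 (median 65.7). CRS 1 at 237 CPM was the one papain library within the CON range (log2 fold change -1.20 ± 0.22 SE; adjusted p = 0.0702 in edgeR, and 0.00386 without CRS 1). Loxl1, a lysyl oxidase that cross-links elastin, had -0.72 ± 0.17 (0.162), Mmp2, a gelatinase, -0.67 ± 0.18 (0.199) and Ctgf, a matricellular growth factor, -0.79 ± 0.20 (0.172). Col6a2 ran from 125 to 240 CPM in CON, 74.2 to 228 in CRS and 73.8 to 115 in C10, again with CRS 1 alone inside the CON range (-0.83 ± 0.20; 0.162). Col3a1 had -0.86 ± 0.26 (0.220) and Col1a1 -0.94 ± 0.33 (0.261).

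Markers of the cells that make and line this tissue lay lower alongside. All 12 fibroblast markers were below 0 (median -0.51), with a summed level of 1007 to 1715 CPM in CON, 630 to 1681 in CRS and 684 to 1082 in C10. Of 20 endothelial markers 19 were below 0 (median -0.51), with sums of 804 to 1378 CPM in CON, 506 to 1435 in CRS and 558 to 896 in C10. Smooth muscle and pericyte markers were below 0 for 11 of 12 (median -0.49), and sums ran from 1898 to 2294, 1491 to 2027 and 1497 to 2077 CPM in the same order. In each of these 3 lists the highest CRS library was CRS 1 and the highest CON library CON 5. Bone and cartilage genes, some of whose cells also make collagens, were below 0 for 18 of 19 (median -0.65, and -0.15 without CON 3). Their sum was 475.3 to 2952 CPM in CON (median 690.8), with CON 3 highest. It was 440.6 to 1162 in CRS (median 832.3) and 328.1 to 815 in C10 (median 578.3). The CRS median of this sum thus lay above that of CON. The part of cell content in the values of matrix genes was not tested.

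Named members of these lists gave the same picture. Flt1, a VEGF receptor of endothelium, had -0.51 ± 0.17 (edgeR adjusted p = 0.235), Tek, the angiopoietin receptor, -0.54 ± 0.17 (0.224) and Acta2, smooth muscle actin, -0.52 ± 0.13 (0.168). Without CRS 1, 10 of 20 endothelial, 4 of 12 fibroblast and 5 of 12 smooth muscle markers were called lower, against 2.38% of all genes. With CRS 1, CRS 2 and CRS 5 left out these counts were 2, 3 and 3, against 0.805% of all genes. With only CRS 2 and CRS 5 left out, 0 markers of these lists were called. Red blood cell genes had the lowest median of the lists with at least 8 members tested, -0.999 over 8 genes, but -0.57 without CON 3, and their sum was 147 to 1184 CPM in CON, 77.6 to 329 in CRS and 75.3 to 364 in C10. Alas2, the erythroid enzyme of haem synthesis, had -1.52 ± 0.40 (0.190).

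**Figure D4:**
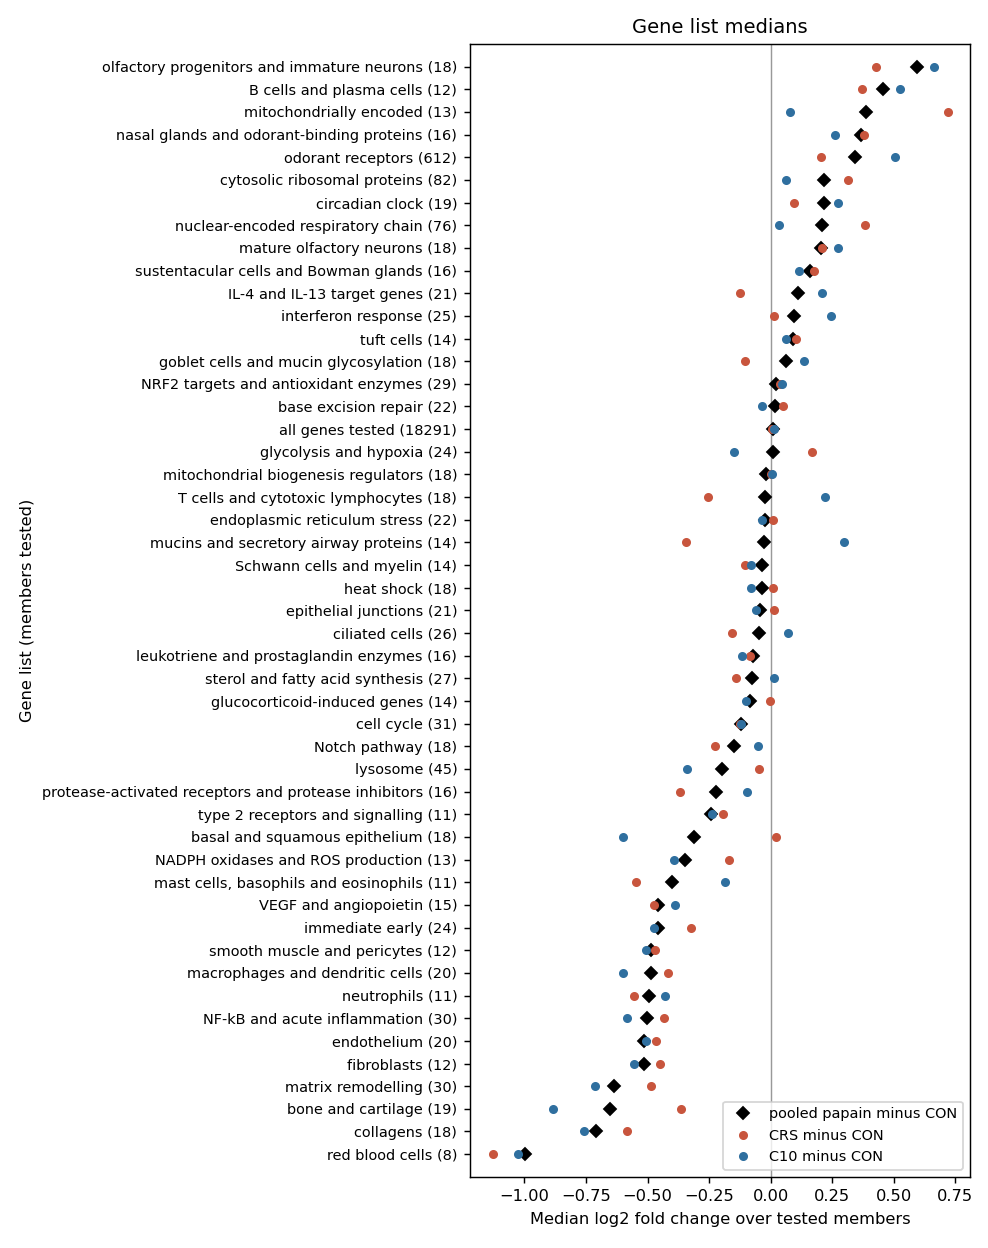
Median log2 fold change against CON (horizontal axis) over the tested members of each gene list with at least 8 of them (vertical axis, number tested in brackets), with black diamonds for the pooled contrast, red for CRS and blue for C10. Red blood cells, collagens, bone and cartilage, and matrix remodelling lie lowest and olfactory progenitors highest, at a median of 0.60, while all genes tested lie at 0.01.

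Papain is used to induce type 2 inflammation. Of the tested genes on the lists of that response 0 were called, where 0.0273% of all genes were, so this count does not set these lists apart. Chil4, a chitinase-like protein made by epithelium in type 2 airway inflammation, ran from 0.176 to 22.0 CPM in CON (median 1.78), 17.4 to 2016 in CRS (median 224) and 13.3 to 527 in C10 (median 37.6). CRS 1 and C10 2 lay below the highest CON library, CON 6, and the other 10 papain libraries above it. The spread within groups was large, and the log2 fold change of 5.95 ± 1.40 SE missed the threshold (adjusted p = 0.162 in edgeR, and 0.0243 without CRS 1).

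Other products of that response lay on both sides of 0. Over 21 tested targets of IL-4 and IL-13, 12 were above 0 (median 0.11, and 0.08 to 0.21 with 1 library left out), with 4 higher and 4 lower at an unadjusted p under 0.05, against 6.55% and 7.14% of all genes. Alox15, a lipoxygenase, had 0.49 ± 0.17 (edgeR adjusted p = 0.264). Chil3, the macrophage relative of Chil4, had -0.79 ± 0.30 (0.295), Arg1 -0.44 ± 0.32 (0.535) and Postn, periostin, -0.52 ± 0.18 (0.264). Il4 had -0.13 ± 0.20 (0.778) and the mucin Muc5ac 0.05 ± 0.37 (0.965). For Muc5ac the near-zero average joined -0.83 in CRS and 0.92 in C10, whose difference was not called (adjusted p = 0.109).

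Several type 2 genes had too few counts to be tested. Retnla had 0 counts in the 6 CON libraries, where 3 counts in a library equal 0.163 to 0.176 CPM, 55 in CRS, of which 28 were in CRS 2, and 5 in C10. Counts of Clca1, a goblet cell product, were 6 over CON, 52 over CRS and 272 over C10. CRS 2 held 36 of those in CRS and C10 4 held 219 of those in C10. Il13 had 1, 14 and 4 counts, with 12 of the 14 in CRS 2. Il5 had 3, 13 and 2, with 8 of the 13 in CRS 6. Retnla had at least 1 count in 5 of 6 CRS libraries, and Clca1 had 9 or more in 5 of 6 C10 libraries against at most 2 in CON, so that these differences have values but no test.

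Genes of acute inflammation were below 0 rather than above. Of 30 NF-kB and acute inflammation genes 29 were below 0 (median -0.50), 5 of them at an unadjusted p under 0.05, against 7.14% of all genes. The median was -0.15 without CON 3 and -0.73 without CRS 1. Ptgs2, inducible cyclooxygenase, ran from 21.6 to 111 CPM in CON (median 31.0), 2.23 to 39.9 in CRS (median 8.36) and 15.8 to 21.1 in C10 (median 17.0). CRS 1 was the only papain library within the CON range, and CON itself was widely spread (log2 fold change -1.68 ± 0.41 SE; adjusted p = 0.162 in edgeR, and 0.00413 without CRS 1). Il6 had -2.35 ± 0.61 (0.188), with 1 CON library, CON 3, at 12.2 CPM and the other 5 between 0.345 and 2.93. Tnf had -0.74 ± 0.34 (0.359) and Il1b -0.96 ± 0.46 (0.370). Without CON 3 the values were -1.13 for Il6, -0.29 for Tnf and -0.45 for Il1b. Immediate early genes, which respond within minutes to stimulation and to handling of tissue, were below 0 for 22 of 24 (median -0.46, and -0.30 without CON 3), with Nr4a2 at -0.85 ± 0.22 (0.190).

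Markers of macrophages and dendritic cells were below 0 for all 20 tested (median -0.49) and summed to 1817 to 4296 CPM in CON, 577 to 4418 in CRS and 1358 to 2530 in C10. Cd68 had -1.03 ± 0.32 (edgeR adjusted p = 0.225) and Cd163 -0.86 ± 0.26 (0.220). Neutrophil markers were below 0 for 10 of 11 (median -0.49, and -0.23 without CON 3). Ltf, lactoferrin, which glands also secrete, held most of their summed level, at 13800 to 17590 CPM in CON, so the list is given by its mean log2 CPM: 3.71 to 5.66 in CON, 1.36 to 4.94 in CRS and 3.48 to 4.77 in C10, which overlapped widely. Mast cell, basophil and eosinophil markers had a median of -0.40. B cell and plasma cell markers had a median of 0.46 (0.74 without CRS 2 and CRS 5, 0.21 without CRS 1 and 0.24 without CON 3). In these lists 0 of 11 and 0 of 12 were called, against 0.0273% of all genes. The part of these cells in the values of inflammatory genes was not tested.

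Genes of olfactory progenitors and immature neurons had the highest median of the lists drawn, 0.60 (0.43 in CRS and 0.66 in C10). Without CRS 2 and CRS 5 it was 0.38, below that of the B cell and plasma cell list. All 18 were above 0 and 11 of them at an unadjusted p under 0.05, against 6.55% of all genes, and 4 were called higher without CRS 1, against 0.58%. With CRS 1, CRS 2 and CRS 5 left out, 2 were called higher, against 0.179% of all genes. With only CRS 2 and CRS 5 left out, 0 were called. Their sum was 567 to 1170 CPM in CON, 654 to 1513 in CRS and 967 to 1584 in C10.

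Neurod1, a transcription factor of immediate neuronal precursors, ran from 1.39 to 2.73 CPM in CON (median 1.74), 1.86 to 5.26 in CRS (median 2.63) and 2.80 to 9.06 in C10 (median 7.35). All C10 libraries lay above CON, and CRS 1, CRS 3 and CRS 4 lay within its range (log2 fold change 1.26 ± 0.27 SE; adjusted p = 0.151 in edgeR, and 0.0143 without CRS 1). Neurog1, a proneural factor of the progenitors, had 1.21 ± 0.37 (0.220). Gap43, a growth cone protein of immature neurons, had 0.74 ± 0.26 (0.266). The mature olfactory neuron list was also above 0 for all 18 genes, at a median of 0.21, and odorant receptors for 534 of 612 (median 0.34). Without CRS 2 and CRS 5 the mature list had 14 of 18 above 0 and a median of 0.08, and odorant receptors a median of 0.21; without CON 5 the medians were 0.08 and 0.21 as well. With the mean level of the mature neuron list as a covariate, 7 genes were called higher and 31 lower.

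**Figure D5:**
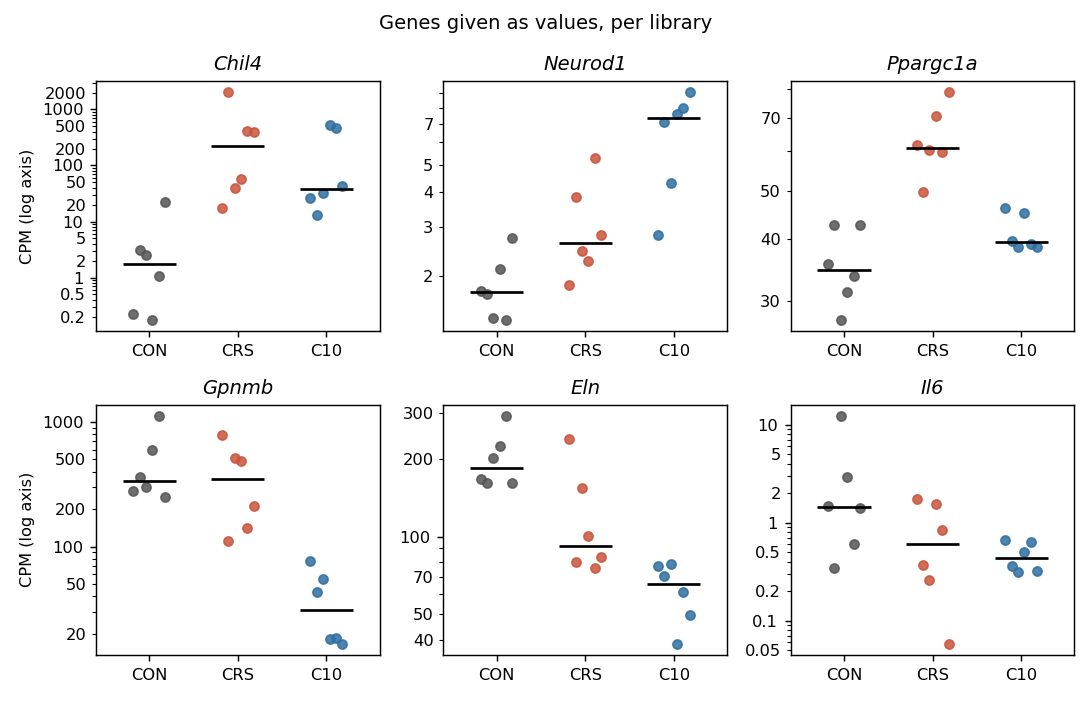
CPM per library (vertical axes, logarithmic) of 6 genes below the threshold in the pooled test, in CON, CRS and C10, 6 libraries each; horizontal lines are medians. Chil4 runs from 17.4 to 2016 CPM within CRS, Gpnmb lies lowest in C10, and Ppargc1a lies highest in CRS.

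For some genes the papain groups stood apart from each other. Ppargc1a, a coactivator of mitochondrial genes, had 27.5 to 42.8 CPM in CON (median 34.7), 49.6 to 78.7 in CRS (median 61.0) and 38.5 to 46.2 in C10 (median 39.4). The CRS libraries stood above both other groups (pooled log2 fold change 0.52 ± 0.10 SE, edgeR adjusted p = 0.0897; C10 minus CRS -0.62 ± 0.12, adjusted p = 0.0458). Gpnmb, which encodes a membrane glycoprotein of phagocytes, ran from 249 to 1115 CPM in CON, 110 to 787 in CRS and 16.7 to 77.3 in C10, and its pooled value of -2.02 ± 0.43 (0.151) averaged -0.37 in CRS and -3.67 in C10 (C10 minus CRS -3.30 ± 0.56, adjusted p = 0.0239). Il33, the alarm cytokine, had a pooled value of 0.12 ± 0.07 (0.463), which averaged -0.22 in CRS and 0.47 in C10 (C10 minus CRS 0.68 ± 0.09, adjusted p = 0.00233).

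Gene lists parted in the same way, as descriptions without a test of the difference. Mitochondrially encoded genes had a median of 0.72 in CRS and 0.08 in C10 (0.39 pooled, 11 of 13 above 0). Nuclear-encoded subunits of the respiratory chain had 0.38 and 0.03 (0.21 pooled, 72 of 76 above 0), and cytosolic ribosomal proteins 0.31 and 0.06 (0.22 pooled, 78 of 82 above 0); without CRS 4 the pooled medians of both were 0.14. Lysosomal genes had -0.05 in CRS and -0.34 in C10 (-0.20 pooled, 41 of 45 below 0), with Ctsd, cathepsin D, at -0.59 ± 0.15 (edgeR adjusted p = 0.182). At an unadjusted p under 0.05, 25 of the 45 lysosomal genes were lower, against 7.14% of all genes. In the order above, 8 of 13, 23 of 76 and 18 of 82 of the other lists were higher, against 6.55%. No member of these 4 lists was called in the pooled comparison, against 0.0273% of all genes. Without CRS 1, 8 lysosomal genes were called lower, against 2.38% of all genes. With CRS 1, CRS 2 and CRS 5 left out 1 was, and with only CRS 2 and CRS 5 left out 0 were. The called gene Arsa, which encodes a lysosomal enzyme, was not in the lysosomal list.

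Complete separation of the 12 papain from the 6 CON libraries was found for 7 of 18291 genes (0.0383%), 4 higher (0.0219%) and 3 lower (0.0164%). Besides Itgbl1, the lower ones were Dact3, a regulator of Wnt signalling (26.6 to 34.1 CPM in CON against 18.6 to 25.5 in papain libraries), and Dhx16, an RNA helicase of splicing (62.3 to 65.6 against 48.4 to 61.3). The higher ones were Fam76b (28.2 to 33.3 against 34.3 to 42.1), Ccar1, a regulator of cell cycle and apoptosis (67.5 to 71.8 against 72.6 to 95.4), Sez6l2, a neuronal membrane protein (0.704 to 1.20 against 1.40 to 6.64), and mt-Tw, a mitochondrial tRNA (0.760 to 0.890 against 0.957 to 2.36). The nearest libraries were 1.01-fold apart for Itgbl1 and 1.17-fold for Sez6l2. Of the 7 only Itgbl1 was called, and Fam76b and Dact3 had log2 fold changes of 0.27 ± 0.05 and -0.35 ± 0.07 (edgeR adjusted p = 0.0897 and 0.0943). Their values in CRS and C10 were close, 0.26 and 0.29 for Fam76b and -0.33 and -0.37 for Dact3. The mt-Tw gene overlaps mt-Nd2, so some of its counts may belong to that gene. It had few counts, 14 to 16 in each CON library and 15 in C10 6. Its separation from C10 6 therefore came from the scaling to library size. Sez6l2 also had few counts, 12 to 22 in each CON library and 24 in CRS 6.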

How the data were processed

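Poly(A)-selected RNA of 18 nasal mucosa libraries was sequenced with a kit that the labels' protocols do not describe as stranded. The authors deposited raw read counts per gene (54532 genes, 1 column per library, 0 columns left over) and an FPKM table that was used only as an alternative, on log2 of FPKM plus 1 or 0.1. The build was mm10 per the submitters' processing notes; the aligner, the counter and the annotation are not stated there. Counts were analysed in R 4.3.3 with edgeR 4.0.16 (filterByExpr by group, TMM, quasi-likelihood F-test, 1 mean per group, contrast of the CRS and C10 average with CON, all 18 libraries); p-values are two-sided and adjusted by Benjamini-Hochberg over 18291 genes. The biological coefficient of variation was 0.264. An SE is the log2 fold change over the square root of F. Alternatives used DESeq2 1.42.0 and limma 3.58.1. The model was tested on simulated counts.

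The members, the 51 gene lists and the tests were chosen with earlier results of these data known. Named genes were the called ones (at least 1 CPM, filled to 6 per direction by smallest p), the 3 of smallest p per list, 20 chosen genes and those without overlap. A few named genes are not reported here. Of 170, 29 overlap another protein-coding gene. Every one of the 153 library pairs differed by more than sampling noise (chi-square over its degrees of freedom at least 14.5).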

Additional observations from a re-analysis of the deposited data

Results flagged for a closer look

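Values of 1 library that stood apart from the other 5 of its group were looked for in 162 named genes, on log2 CPM by Dixon's ratio for 6 values. Of 486 groups of libraries 33 met it (6.79%), where chance alone gives about 1 in 20. CRS 1 held 8 of them and CRS 2 held 6.

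In CRS 1, genes of connective tissue and macrophages were high: Col5a3, a collagen, at 20.3 CPM against at most 10.3 in the other CRS libraries, Nrp1, a VEGF co-receptor, at 82.7, Mrc1, the macrophage mannose receptor, at 74.6, Il4ra at 107, and the proliferation genes Plk1 at 10.5 and Cenpf at 16.2. Trib3 at 9.3 and the keratin gene Krt18 at 404 were low there. In CRS 2, inflammatory and interferon genes were low: Cxcl1 at 0.557, Tnf at 1.42, Ifit3 at 7.48, Isg15 at 3.65 and Gzma, of cytotoxic lymphocytes, at 0.804 CPM, while the mast cell tryptase Tpsb2 at 1.67 was high.

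In CRS 4, the respiratory chain genes Uqcrh at 247 and Ndufa3 at 99.1 CPM and the neutrophil granule gene Ngp at 12.8 were high and Dhx16 at 48.5 was low. In CRS 3, Sez6l2 was high at 6.64. Among C10 libraries, Itgbl1 at 26.2 was high and Il33 at 113 low in C10 2, Trib3 at 10.5 was low in C10 3, E2f1 at 9.72 was high in C10 5, and in C10 6 Lmod1 at 21.9 was high and Dhx16 at 48.4 was low.

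In CON 3, the squamous keratins Krt13 at 25.7 and Krt4 at 47.1 CPM and Ptges at 138 were high, and mt-Tw at 0.76 met the ratio on the low side. That mt-Tw value was 14 counts, against 15 or 16 in the other CON libraries, so the flag has little meaning. In CON 5, the muscle calcium pump gene Atp2a1 at 13.5 and Acaca at 55.9 were high and Trib3 at 8.34 was low. Cpa3 was low in CON 1 at 0.511, from 9 counts against 13 to 17 in the other CON libraries.

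By edgeR's test of C10 against CRS, the 2 papain groups differed for Gpnmb at -3.30, Ppargc1a at -0.62 and Il33 at 0.68 on the log2 scale. No group had the compound without papain, so a different papain effect and an effect of the compound itself cannot be told apart.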

How the results depend on the processing

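The deposited counts limit precision through the spread between libraries more than through depth, since 3 counts equal at most 0.193 CPM. Genes called in the pooled comparison, higher and lower, numbered 0 and 5 over all libraries. They numbered 56 and 95 with DESeq2, 141 and 433 with limma-voom, 1 and 1 on log2 of FPKM plus 1, 1 and 6 on FPKM plus 0.1, 7 and 31 with the olfactory neuron level as a covariate, and 34 and 153 without CRS 1, CRS 2 and CRS 5. Both were 0 with RLE size factors, no filter, a minimum of 2-fold, papain as 1 group of 12 and without CRS 2 and CRS 5. Leaving out 1 library gave 0 to 107 higher and 0 to 439 lower. The 5 called genes kept their direction in 30 alternatives each and were called in 7 (Arsa) to 11 (Spon2) of them, with adjusted p up to 0.195, not counting the 2-fold minimum, at which none was called; the cause was not tested.

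For CRS against CON the 1 call became 3 under the stricter filter, 179 with DESeq2, 940 with limma-voom, 2 on either FPKM scale and with the covariate, 0 at a minimum of 2-fold, 194 without CRS 1, CRS 2 and CRS 5, and 0 to 994 with 1 library left out. For C10 against CON the 29 calls became 17 with no filter, 318 with DESeq2, 252 with limma-voom, 0 at 2-fold, 134 with the covariate, 74 without CRS 2 and CRS 5, 197 without all 3, and 3 to 110 with 1 left out. For C10 against CRS the 15 became 23 under the stricter filter and on FPKM plus 1, 350 with DESeq2, 548 with limma-voom, 0 at 2-fold, 414 with the covariate, 100 and 53 without those libraries, and 7 to 81 with 1 left out. Genes without overlap numbered 11 with no filter, 21 and 80 without those libraries, and 8 to 58 with 1 left out, where fewer libraries must be separated.

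With the replicate number as a block the pooled comparison gave 0 calls, CRS against CON 0 and C10 against CON 12, and Muc5ac turned to -0.0218. Deviations of same-numbered libraries correlated above 0.1 in 8 of 18 pairs, from -0.574 to 0.519, with no common pairing over the groups. Pairs of CON with CRS ran from -0.574 to 0.225, of CON with C10 from -0.417 to 0.185, and of CRS with C10 from -0.231 to 0.519. Whether the numbers pair CRS with C10 libraries was not tested.

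Of 165 named genes 9 turned direction somewhere, none of them called. With limma-voom Atp2a1 was at 0.0613, Ngp at 0.222 and Areg at -0.0332. With the covariate Ngp was at 0.78, Il1rl1 at 0.102, H2-DMa at 0.0489 and Cd74 at 0.0173. Without CRS 2 and CRS 5, H2-DMa was at 0.0516 and Cd74 at 0.0596. Areg was at -0.0368 on FPKM plus 0.1, and Muc5ac at -0.0612 on FPKM plus 1 and -0.0737 on FPKM plus 0.1. With 1 library left out, Atp2a1 ran from -1.91 to 0.35, Il4 from -0.25 to 0.00198, Ciita from -0.55 to 0.0624, Il1rl1 from -0.75 to 0.0747, H2-DMa from -0.28 to 0.15, Cd74 from -0.35 to 0.13, Areg from -0.0666 to 0.24 and Muc5ac from -0.0411 to 0.26.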

Other observations

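Receptors through which proteases act had values on both sides. F2rl1, which encodes the protease-activated receptor of epithelium that papain-like and serine proteases can engage, had 21.3 to 27.4 CPM in CON, 26.0 to 34.6 in CRS and 23.6 to 33.6 in C10, with 9 of 12 papain libraries above all CON libraries (log2 fold change 0.29 ± 0.08 SE; edgeR adjusted p = 0.202). F2r, the thrombin receptor, had -0.35 ± 0.12 (0.264). Tuft cell genes, which mark chemosensory cells of the epithelium, had a median of 0.09, with 9 of 14 above 0 and 5 below. Their summed level was similar in the groups, with medians of 171.5 CPM in CON, 157.9 in CRS and 176.1 in C10. At an unadjusted p under 0.05, 4 of the 14 were higher and 0 lower, against 6.55% and 7.14% of all genes. Among the higher ones, Sh2d6 had 1.14 to 1.79 CPM in CON, 1.62 to 3.63 in CRS and 1.85 to 4.24 in C10 (0.79 ± 0.21; 0.198), and Gnat3, the taste transduction G protein, 1.00 ± 0.29 (0.211). The defining tuft cell factor Pou2f3 had 0.09 ± 0.20 (0.854).

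Myelin genes of Schwann cells had a median of -0.03 over 14 members. Prx, periaxin, nevertheless had -0.80 ± 0.16 (edgeR adjusted p = 0.110) and Pmp22 -0.47 ± 0.12 (0.162), with 11 and 10 of 12 papain libraries below all CON libraries. Sirt1, a deacetylase that acts on PPARGC1A, had 21.7 to 24.5 CPM in CON, 24.1 to 28.4 in CRS and 24.8 to 26.4 in C10 (0.17 ± 0.05; 0.203). Apex1, the gene of the enzyme that C10 is described to inhibit, had -0.16 ± 0.13 (0.567), and the 22 genes of base excision repair a median of 0.02. Antioxidant genes had 6 of 29 higher and 0 lower at an unadjusted p under 0.05, against the same shares, with a median of 0.02.

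Skeletal muscle genes had a median of -0.70 over 7 tested members, and their sum was 66.6 CPM in CON 5. Without CON 5 that median was 0.07.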
